A study of Danio rerio with 32 samples.

Results

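The genes described here carry secreted and membrane proteins into the endoplasmic reticulum (ER) and fold them there. They were picked by gene symbol alone, with a fixed pattern of name stems such as sec61, ssr, pdia, calr and derl, and 55 of the 32519 genes in the count table matched. By role, 18 belong to import into the ER, 3 to signal peptidase, 6 to the oligosaccharyltransferase, 19 to folding and disulfide formation, 8 to degradation, and 1 is the regulator XBP1. Of the 55, 54 had enough counts to be tested; EDEM3, with 20 counts in all libraries together, did not.

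Most proteins that hepatocytes secrete are plasma proteins, and these enter the ER while they are being made. The signal recognition particle docks the ribosome at the Sec61 channel, signal peptidase removes the leader, the oligosaccharyltransferase adds a glycan, and chaperones and disulfide isomerases fold the chain. When unfolded chains build up, the unfolded protein response raises many of these genes through the transcription factors XBP1 and ATF6, while a further branch acts through ATF4.

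RNA was measured by sequencing in zebrafish (Danio rerio) livers, with 20 dissected livers pooled per library. There were 8 groups of 4 libraries. At 24 h they were nrf2KO livers given APAP (acetaminophen, a drug that injures the liver in overdose), nrf2KO livers given DMSO, the solvent, wild-type livers given APAP and wild-type livers given DMSO. The same 4 groups were collected at 12 h. The labels describe the mutant only as nrf2KO, here KO, and wild type is WT; the allele, the APAP dose and the age of the fish are not stated in them. Nrf2 is the transcription factor behind much of the antioxidant response. The labels do not say whether the 4 libraries of a group came from separate clutches, so p-values measure the spread between these libraries.

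Library totals ran from 3971569 to 6298523 assigned counts. All 21 hepatocyte markers were detected, at 6.68% to 13.1% of counts, and the 28 pancreas markers, all detected as well, took 1.57% to 17.5%. Of the 2 nrf2 copies, NFE2L2 ranged from 6.10 to 54.4 CPM in KO libraries and from 29.8 to 83.9 CPM in WT libraries, and nfe2l2b reached at most 15.6 CPM, so transcript level did not separate the genotypes. The library KO APAP 12 h replicate 2 stood apart: it held 4129 detected genes, against a median of 12096, and 19 of the 54 tested ER genes had no count in it, against 0 to 5 in every other library. WT DMSO 12 h replicate 2 (8815 genes) and KO DMSO 12 h replicate 3 (9703 genes) were the next poorest. Values below are CPM on library totals scaled by TMM, and a gene is called where the edgeR quasi-likelihood test gave a Benjamini-Hochberg adjusted p under 0.05 over all 11384 genes tested.

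Together the 55 genes took 0.409 ± 0.0920% of counts in KO APAP livers at 24 h and 0.483 ± 0.0828% in KO DMSO livers (SD, n = 4 each, as for every mean below). In WT at 24 h the share was 0.416 ± 0.0833% under APAP and 0.467 ± 0.0397% under DMSO. At 12 h it was 0.639 ± 0.115% in KO APAP livers and 0.778 ± 0.0729% in KO DMSO livers. The WT livers at 12 h had 0.611 ± 0.0470% under APAP and 0.812 ± 0.166% under DMSO. In each of the 4 comparisons the APAP mean was the smaller one on unscaled totals, and the libraries of the 2 treatments overlapped. At 12 h every KO DMSO library had a larger TMM factor than every KO APAP library, and a larger factor lowers a scaled share. In WT at 12 h the factors of the 2 treatments overlapped, with the largest in a DMSO library. The direction at 12 h is therefore given for unscaled totals only. On unscaled totals, every 24 h library lay below every 12 h library of its own genotype and treatment. In DMSO livers that separation holds on unscaled totals only, since the TMM factors of DMSO libraries at 24 h were 0.702 to 0.953.

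**Figure D1:**
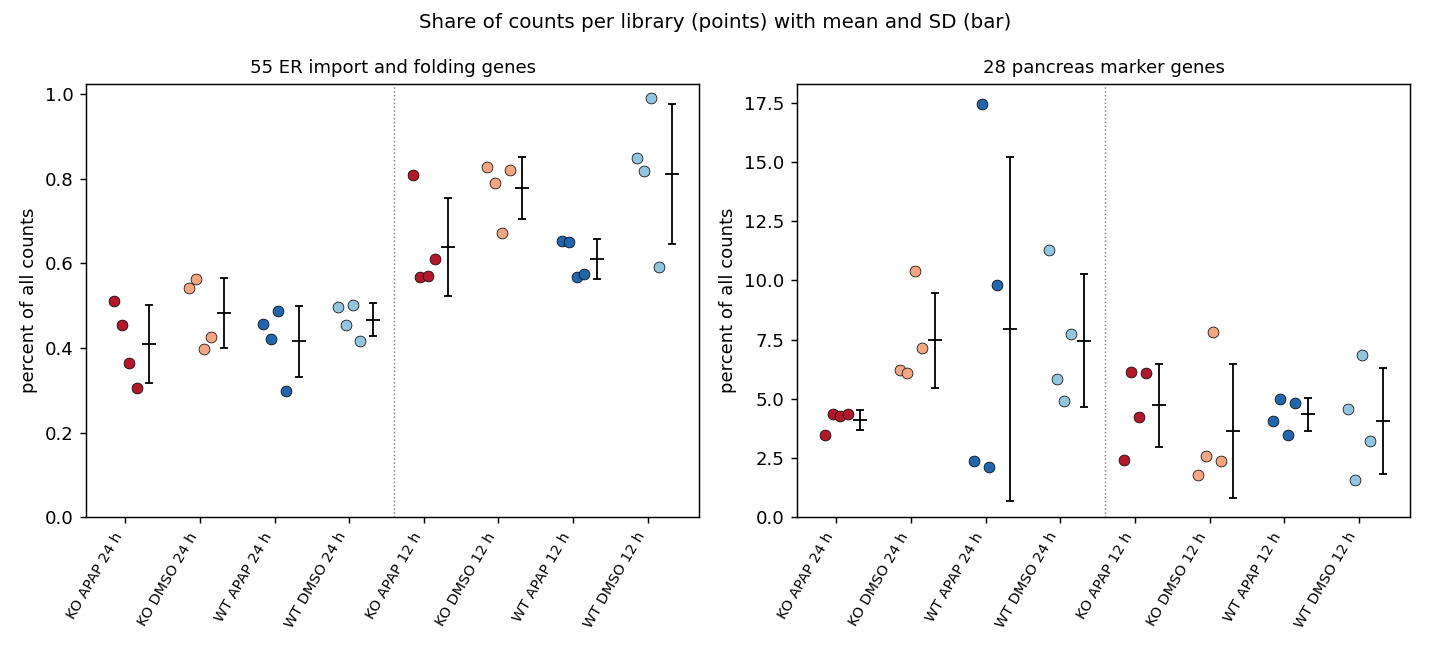
Percent of all counts, on unscaled library totals, taken by the 55 ER import and folding genes (left) and by the 28 pancreas markers (right). Points are libraries, bars the mean and SD of 4. The ER share lies between 0.297% and 0.564% at 24 h and between 0.567% and 0.991% at 12 h, and the pancreas share of KO APAP 24 h livers, at most 4.37%, lies below that of KO DMSO 24 h livers, at least 6.08%.

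The question put by APAP against DMSO is which of these genes respond to the drug, and KO livers at 24 h had the most calls. There, 10 of the 54 tested genes were called, 9 lower and 1 higher, against 5.05% of all tested genes called (3% lower and 2.05% higher). That is 18.5% of these genes, and their median log2 fold change was -0.30, against -0.00 over all tested genes. The folding genes held most of it: 7 of 19 fell, 16 of 19 had a value below 0, and their median was -0.84. Of the 18 import genes 1 fell, of the 6 oligosaccharyltransferase genes 1 fell, and none of the 3 signal peptidase or 7 degradation genes passed. XBP1 alone rose. The count was 16 without the 3 libraries poorest in genes, where 10.9% of all tested genes were called, and 18 with only these 2 groups in the fit, where 19.4% were. Those 3 libraries are all of 12 h, so leaving them out kept every library compared here. It changed only what the groups share in the fit, such as the estimate of spread. The count was 8 without a count filter, PDIA6 and RPN1 no longer called, where 2.64% of all tested genes were. It was 5 to 9 with 1 library left out, where 3.31% to 4.15% of all tested genes were called. With the same-numbered libraries of these 2 groups as pairs, the count was 8: PDIA4 (edgeR adjusted p = 0.103), PDIA6 (0.0547) and RPN1 (0.0843) were not called and DERL3 (0.0440) was.

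Most genes called lower in KO at 24 h were of calreticulin or isomerase type. The calreticulin copy calr3a, a lectin chaperone of glycoproteins, had 91.4, 71.3, 71.1 and 61.9 CPM in KO APAP libraries at 24 h, against 304, 294, 197 and 189 CPM in KO DMSO libraries. The lowest DMSO library stood above 2 times the highest APAP library, and the log2 fold change was -1.73 ± 0.28 (SE; edgeR adjusted p = 4.0e-05). P4HB, the classic protein disulfide isomerase, had 330, 256, 365 and 247 CPM under APAP, against 786, 767, 641 and 633 CPM under DMSO. All 4 APAP libraries lay below all 4 DMSO libraries, and P4HB fell by 1.24 ± 0.27 on the log2 scale (edgeR adjusted p = 0.00247).

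The isomerase gene pdia2, known in mammals from the pancreas, had 79.0, 121, 96.5 and 90.0 CPM in KO APAP libraries at 24 h, against 291, 282, 346 and 322 CPM in KO DMSO libraries. The groups were far apart and each was tight, with a log2 fold change of -1.68 ± 0.40 (edgeR adjusted p = 0.00613). The pancreas share of counts moved the same way, at 3.48% to 4.37% in KO APAP libraries and 6.08% to 10.4% in KO DMSO libraries. By an exact two-sided permutation test over 70 assignments its p was 0.0286, the smallest that 4 against 4 allows, and 0.114 after adjustment over 4 comparisons. Taken as 4 pairs it was lower under APAP in all 4, with an exact two-sided sign-flip p of 0.125, the smallest that 4 pairs allow. The hepatocyte markers also took a smaller share, at 8.17% to 10.2% in KO APAP libraries and 10.6% to 12.98% in KO DMSO libraries, without overlap. The part of either share in the fall of the folding genes was not tested. With the pancreas share as a covariate, pdia2 fell by 1.098 on the log2 scale (edgeR adjusted p = 0.00883). The same 10 genes were called in that fit. That fit takes 1 slope on the pancreas share over all 32 libraries, estimated from the spread within groups. In KO livers at 24 h the share did not overlap between the treatments, so the adjusted values rest on that slope holding across the gap. Whether it does was not tested. In WT APAP libraries at 24 h pdia2 had 62.0, 457, 70.8 and 195 CPM, beside pancreas shares of 2.39%, 17.5%, 2.11% and 9.80%. In WT DMSO libraries at 24 h it had 335, 238, 193 and 243 CPM, beside 11.3%, 5.85%, 4.92% and 7.74%. In pooled livers, fewer cells of a type and less RNA per cell cannot be told apart.

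HSP90B1, the ER member of the HSP90 chaperone family, had 232, 137, 128 and 70.4 CPM in KO APAP libraries at 24 h, against 616, 507, 239 and 198 CPM in KO DMSO libraries. The 2 groups overlapped at their edge, since the highest APAP library exceeded the lowest DMSO library. The log2 fold change was -1.46 ± 0.41 (edgeR adjusted p = 0.0223). PDIA6, another isomerase, overlapped likewise, at 29.4 ± 6.59 CPM under APAP and 74.6 ± 38.7 CPM under DMSO (-1.34 ± 0.38, edgeR adjusted p = 0.0279). PDIA4 averaged 2.13 ± 1.23 CPM under APAP and 11.5 ± 6.83 CPM under DMSO (-2.44 ± 0.72, edgeR adjusted p = 0.0353). CALR, a further calreticulin gene, averaged 5.41 ± 3.07 CPM under APAP and 22.8 ± 4.60 CPM under DMSO (-2.08 ± 0.62, edgeR adjusted p = 0.0410). Neither PDIA4 nor CALR overlapped between the treatments. The fall of PDIA6 began from a raised KO level, since WT DMSO libraries at 24 h had 7.82 to 23.1 CPM.

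These later calls lay near the threshold, and each ended when any 1 of most of the 8 libraries was left out. With 1 library left out, the log2 fold change ran from -1.80 to -1.13 for HSP90B1 and from -1.58 to -0.99 for PDIA6. It ran from -2.73 to -2.01 for PDIA4 and from -2.505 to -1.86 for CALR. The HSP90B1 call ended when any of 5 of the 8 compared libraries was left out (KO APAP 24 h replicates 2, 3 and 4, KO DMSO 24 h replicates 1 and 2; edgeR adjusted p 0.0682 to 0.158). PDIA4 (0.0501 to 0.165) and PDIA6 (0.0533 to 0.219) lost theirs without any of 6, being called only without KO DMSO 24 h replicate 3 or 4. CALR was called only without KO APAP 24 h replicate 4 (0.0571 to 0.164 without any other). The calls of calr3a, P4HB, pdia2, SSR2 and XBP1 at 24 h in KO stood without any 1 of the 8.

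Among import genes in KO at 24 h, SSR2, a subunit of the translocon-associated complex beside the channel, had 364, 332, 488 and 458 CPM under APAP, against 789, 950, 996 and 1029 CPM under DMSO. No APAP library came near the DMSO ones, and the log2 fold change was -1.20 ± 0.25 (edgeR adjusted p = 0.00150). The channel itself differed less: SEC61B stood at 120 ± 38.4 CPM under APAP and 190 ± 50.05 CPM under DMSO (-0.66 ± 0.35, edgeR adjusted p = 0.390). The gamma subunit SEC61G stood at 483 ± 272 CPM under APAP and 326 ± 185 CPM under DMSO (0.57 ± 0.58, edgeR adjusted p = 0.782). For the channel-forming alpha subunit, the table holds 2 genes under the symbol SEC61A1, with log2 fold changes of -0.29 (ENSDARG00000021669) and -0.17 (ENSDARG00000005675), neither called. SEC63, a further import gene, had 54.7, 35.9, 62.5 and 30.9 CPM under APAP, against 27.3, 18.2, 29.1 and 22.2 CPM under DMSO. These groups did not overlap, yet SEC63 was not called. DESeq2 called it higher (adjusted p = 0.0483). So did edgeR with only these 2 groups in the fit (adjusted p = 0.0235) and without the 3 libraries poorest in genes (0.0186). RPN1, an oligosaccharyltransferase subunit, was lower in every APAP library than in any DMSO library, at 71.3 to 97.1 CPM under APAP and 130 to 198 CPM under DMSO (-0.99 ± 0.31, edgeR adjusted p = 0.0491). Leaving out any 1 of the 8 libraries ended the RPN1 call (edgeR adjusted p 0.0586 to 0.176).

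XBP1, whose spliced product switches on ER folding and degradation genes, went the other way. It had 2078, 1573, 1710 and 1371 CPM in KO APAP libraries at 24 h, against 988, 815, 889 and 700 CPM in KO DMSO libraries. Every APAP library exceeded every DMSO library, and XBP1 rose by 0.99 ± 0.24 on the log2 scale, or 1.98-fold (edgeR adjusted p = 0.00800). Gene counts do not separate its spliced and unspliced forms.

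**Figure D2:**
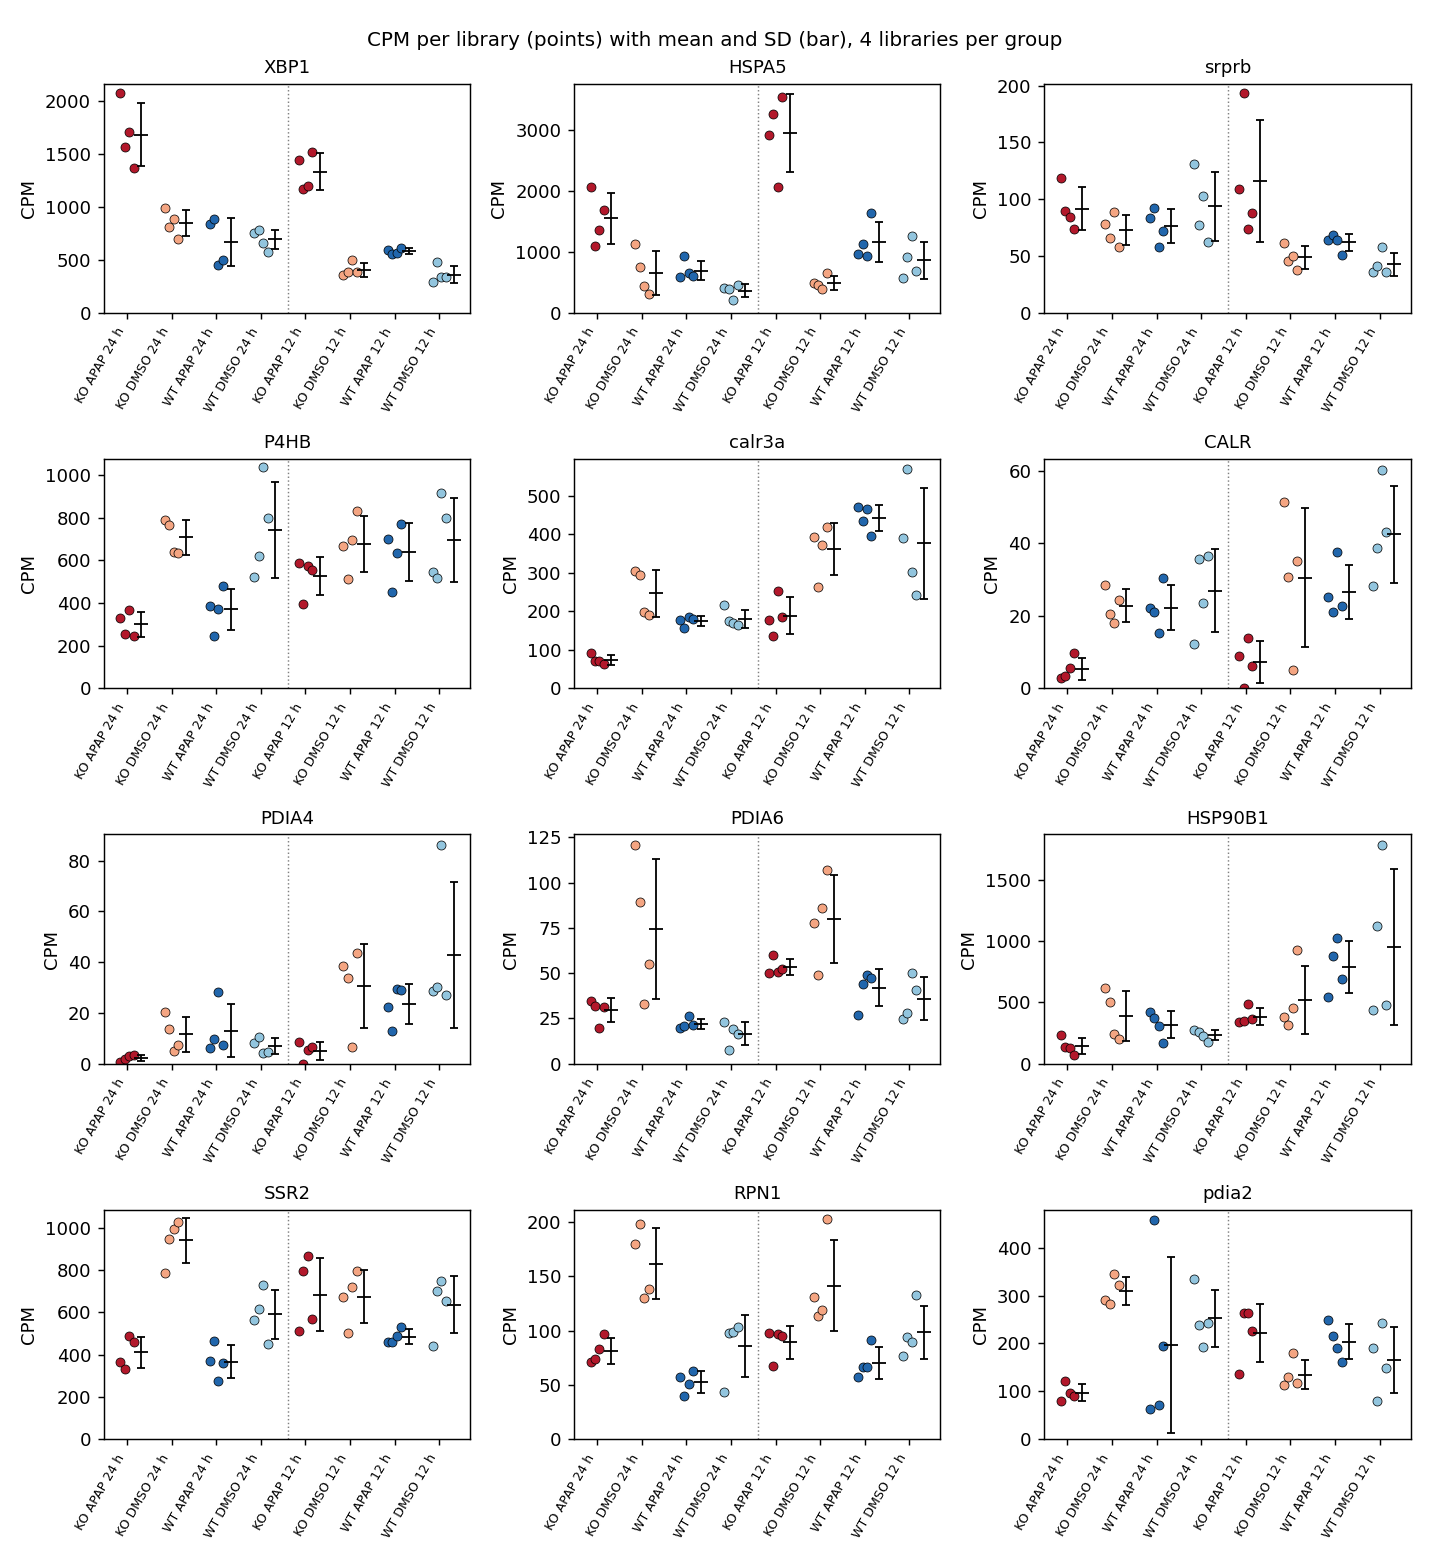
TMM-scaled CPM (vertical axis, from 0) of 11 called ER genes and of HSPA5 in each library of the 8 groups; points are libraries, bars the mean and SD of 4, and the dotted line parts 24 h from 12 h. In KO livers at 24 h, calr3a, P4HB, SSR2 and pdia2 lie lower in every APAP library than in any DMSO library, while XBP1 lies higher.

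In KO livers at 12 h, 5 genes were called, 2 higher and 3 lower, or 9.26% of the 54, against 5.22% of all tested genes (3.09% higher and 2.13% lower). Their median log2 fold change was -0.27, close to the -0.30 of all tested genes, which became -0.51 with DESeq2's median-of-ratios scaling in edgeR. Under that scaling 6 genes were called, 1 higher and 5 lower, against 2.14% higher and 3.03% lower over all tested genes. Under TMM scaling the 19 folding genes had a median of -0.86, with 17 below 0 and 3 called lower. By the same scaling 13 of the 18 import genes lay above 0, with a median of 0.16. With median-of-ratios scaling the folding median was -1.06, so how many import genes lie above 0 depends on the scaling. Without KO APAP 12 h replicate 2, the library poorest in genes, the folding genes had a median of -0.51, with 18 below 0 and 2 called lower, against -0.10 over all tested genes.

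XBP1 had 1447, 1167, 1201 and 1518 CPM in KO APAP libraries at 12 h, against 355, 386, 498 and 385 CPM in KO DMSO libraries. The lowest APAP library exceeded the highest DMSO library 2 times over. XBP1 rose by 1.72 ± 0.25 on the log2 scale, which is 2.02 above the all-gene median (3.29-fold, edgeR adjusted p = 8.9e-06). Its call stood under all 7 alternatives and without any 1 of the 8 libraries.

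The gene srprb, for the membrane-anchored subunit of the signal recognition particle receptor, had 109, 194, 73.8 and 87.6 CPM in KO APAP libraries at 12 h, against 61.8, 45.6, 49.9 and 37.9 CPM in KO DMSO libraries. The groups did not overlap and srprb rose by 1.25 ± 0.32 (log2, edgeR adjusted p = 0.0149). The highest of its values came from KO APAP 12 h replicate 2, the library poorest in genes. Without that replicate the adjusted p was 0.0547 or more, as it was without KO DMSO 12 h replicate 4 (range 0.0547 to 0.0680).

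Lower in KO at 12 h were PDIA4, CALR and calr3a. PDIA4 had 8.42, 0, 5.24 and 6.56 CPM in APAP libraries, against 38.5, 33.9, 6.41 and 43.7 CPM in DMSO libraries (log2 fold change -2.58 ± 0.69, edgeR adjusted p = 0.0196). CALR had 8.97, 0, 13.8 and 6.18 CPM in APAP libraries, against 51.3, 30.6, 5.16 and 35.04 CPM in DMSO libraries (-2.07 ± 0.62, edgeR adjusted p = 0.0393). In both genes the value of 0 was KO APAP replicate 2 and the low DMSO value replicate 3, the libraries poor in genes, and replicate 3 brought the groups into overlap. The third, calr3a, had 177, 137, 253 and 185 CPM under APAP, against 393, 264, 371 and 419 CPM under DMSO (-0.95 ± 0.27, edgeR adjusted p = 0.0322), without overlap.

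Without the 3 libraries poorest in genes, 3 genes were called in KO at 12 h: XBP1 (1.87), PDIA4 (-2.53) and CALR (-2.04), while calr3a (-0.83, edgeR adjusted p = 0.0541) and srprb (0.88, 0.0791) were not. DESeq2 called 9 genes there, against 11.3% of all tested genes, and edgeR with only these 2 groups in the fit called 1, XBP1, against 1.1%. PDIA4 lost its call without KO DMSO 12 h replicate 1 or 4 (edgeR adjusted p 0.0540 to 0.0633). CALR lost its call without any of 5 libraries (KO APAP 12 h replicates 1 and 4, KO DMSO 12 h replicates 1, 2 and 4; 0.0515 to 0.141), and with the pancreas share as a covariate (0.0838). The pancreas share was 4.72 ± 1.77% in KO APAP livers and 3.64 ± 2.82% in KO DMSO livers at 12 h (exact permutation p = 0.543). For calr3a any of 6 libraries ended the call (0.0525 to 0.0910), all but KO APAP 12 h replicate 3 and KO DMSO 12 h replicate 2.

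In WT livers at 24 h, 1 of the 54 genes was called, against 3.2% of all tested genes, with a median of -0.10 over the 54 and 0.02 over all tested genes. It was P4HB, with 386, 243, 370 and 480 CPM in APAP libraries, against 519, 619, 1035 and 798 CPM in DMSO libraries. The groups did not overlap, though the highest APAP and lowest DMSO library lay close. P4HB fell by 1.01 ± 0.27 on the log2 scale (edgeR adjusted p = 0.0247). That call ended without any of 5 libraries (WT APAP 24 h replicates 1, 2 and 3, WT DMSO 24 h replicates 3 and 4; 0.0549 to 0.160), and it ended without a count filter. The other 9 genes called in KO at 24 h had log2 fold changes from -0.71 (RPN1) to 0.89 (PDIA4) in WT. The pancreas share of WT APAP livers was 7.94 ± 7.28%, against 7.45 ± 2.81% in WT DMSO livers (exact permutation p = 0.943).

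In WT livers at 12 h none of the 54 genes was called by edgeR, against 1.8% of all tested genes; 1 higher and 2 lower had an unadjusted p under 0.05, and DESeq2 called 1, EDEM2. EDEM2, which helps to pick misfolded glycoproteins for degradation, averaged 1.47 ± 1.33 CPM under APAP and 7.43 ± 3.29 CPM under DMSO (log2 fold change -2.31 ± 0.76, edgeR adjusted p = 0.127). XBP1 had 592, 554, 563 and 618 CPM in WT APAP libraries at 12 h, against 295, 479, 343 and 335 CPM in WT DMSO libraries. The groups did not overlap, yet the log2 fold change of 0.68 ± 0.24 missed the threshold (edgeR adjusted p = 0.183). Without the 3 libraries poorest in genes, both EDEM2 (-1.97, edgeR adjusted p = 0.0444) and XBP1 (0.85, 0.0442) were called.

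**Figure D3:**
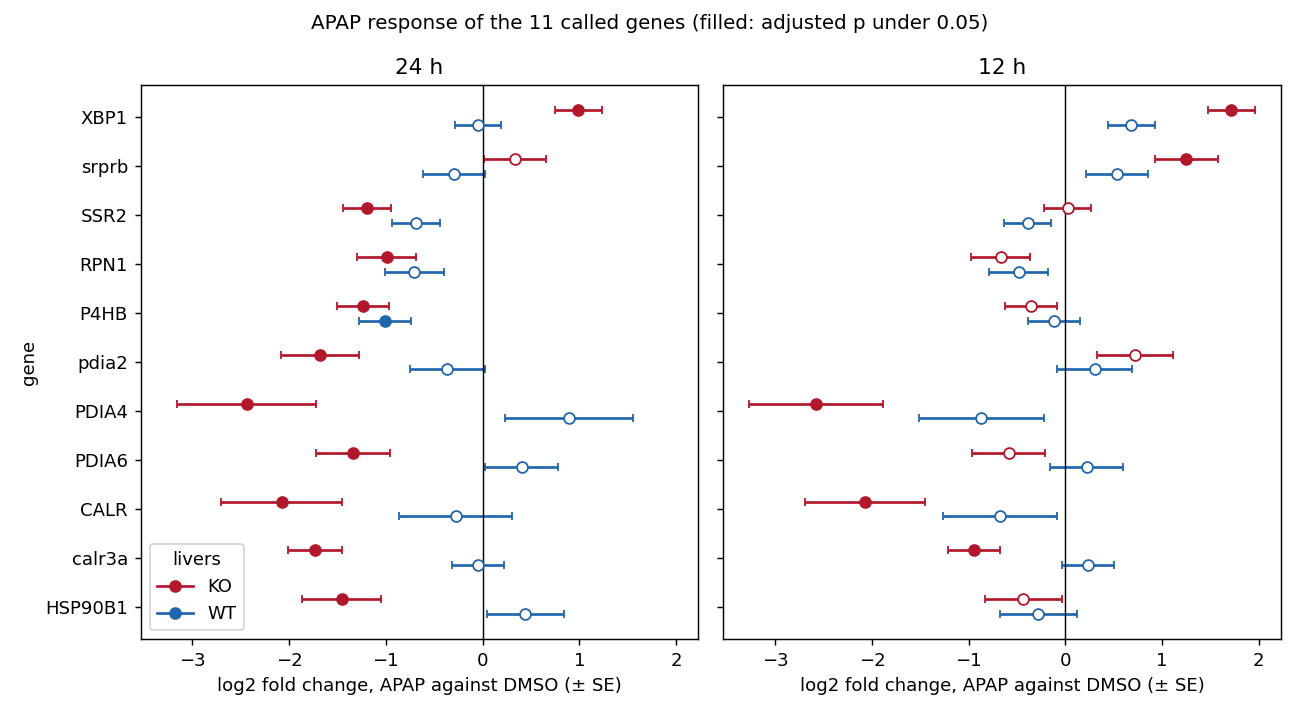
Log2 fold change, APAP against DMSO, with its SE for the 11 genes called in at least 1 comparison, at 24 h (left) and 12 h (right), in KO (red) and WT (blue) livers; filled points have an adjusted p under 0.05. At 24 h the KO points of 9 genes lie at -0.99 or below, where P4HB is the WT point that is called.

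Several genes often read as ER stress markers were not called under APAP, some of them with few counts; 13 of the 54 tested genes averaged under 3 on the log2 CPM scale over all libraries. CRELD2 stayed at or below 1.595 CPM in every group mean and SDF2L1 at or below 6.65 CPM. HERPUD1, a degradation factor, averaged 3.30 ± 0.718 CPM in KO APAP and 2.34 ± 2.43 CPM in KO DMSO livers at 24 h. HYOU1, an ER chaperone, averaged 8.70 ± 5.20 CPM in KO APAP and 10.5 ± 2.39 CPM in KO DMSO livers at 24 h, and MANF 6.65 ± 2.08 CPM in KO APAP and 9.62 ± 6.59 CPM in KO DMSO livers. None of these 5 was called in any of the 4 APAP comparisons. The oxidase gene ERO1A had group means of at most 1.63 CPM, and its copy ERO1B, which reoxidises the isomerases, averaged 13.1 ± 4.12 CPM in KO APAP and 33.9 ± 6.46 CPM in KO DMSO livers at 24 h (-1.37 ± 0.48, edgeR adjusted p = 0.0993). These groups of ERO1B did not overlap, and DESeq2 called it lower. So did edgeR with the compared groups alone (adjusted p = 0.00408) and without the 3 libraries poorest in genes (0.00327). The calreticulin copy calr3b, not called in KO at 24 h either, was called lower in the same 2 edgeR fits (adjusted p = 0.0113 and 0.00676).

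Calnexin and the degradation genes were not called either. CANX, the membrane-bound partner of calreticulin, averaged 102 ± 21.5 CPM in KO APAP and 160 ± 22.3 CPM in KO DMSO livers at 24 h (-0.64 ± 0.52, edgeR adjusted p = 0.678). The CANX groups did not overlap, and edgeR with only these 2 groups in the fit called it lower (adjusted p = 0.0456). That fit also called the degradation gene EDEM2 lower (-1.19, edgeR adjusted p = 0.0471). SEL1L, the scaffold of the ER ubiquitin ligase complex, averaged 10.9 ± 4.08 CPM under APAP and 15.8 ± 2.65 CPM under DMSO (-0.52 ± 0.52, edgeR adjusted p = 0.765). EDEM1 averaged 13.5 ± 3.62 CPM in KO APAP and 16.7 ± 1.71 CPM in KO DMSO livers at 24 h. The derlins carry chains back out of the ER: DERL1 averaged 10.1 ± 6.66 CPM in KO APAP and 8.12 ± 3.75 CPM in KO DMSO livers at 24 h. DERL3 averaged 2.82 ± 1.55 CPM in KO APAP and 0.136 ± 0.272 CPM in KO DMSO livers at 24 h (4.26 ± 1.33, edgeR adjusted p = 0.0520). DERL3 was called without the 3 libraries poorest in genes (edgeR adjusted p = 0.00628), with DESeq2 and with median-of-ratios scaling.

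**Figure D4:**
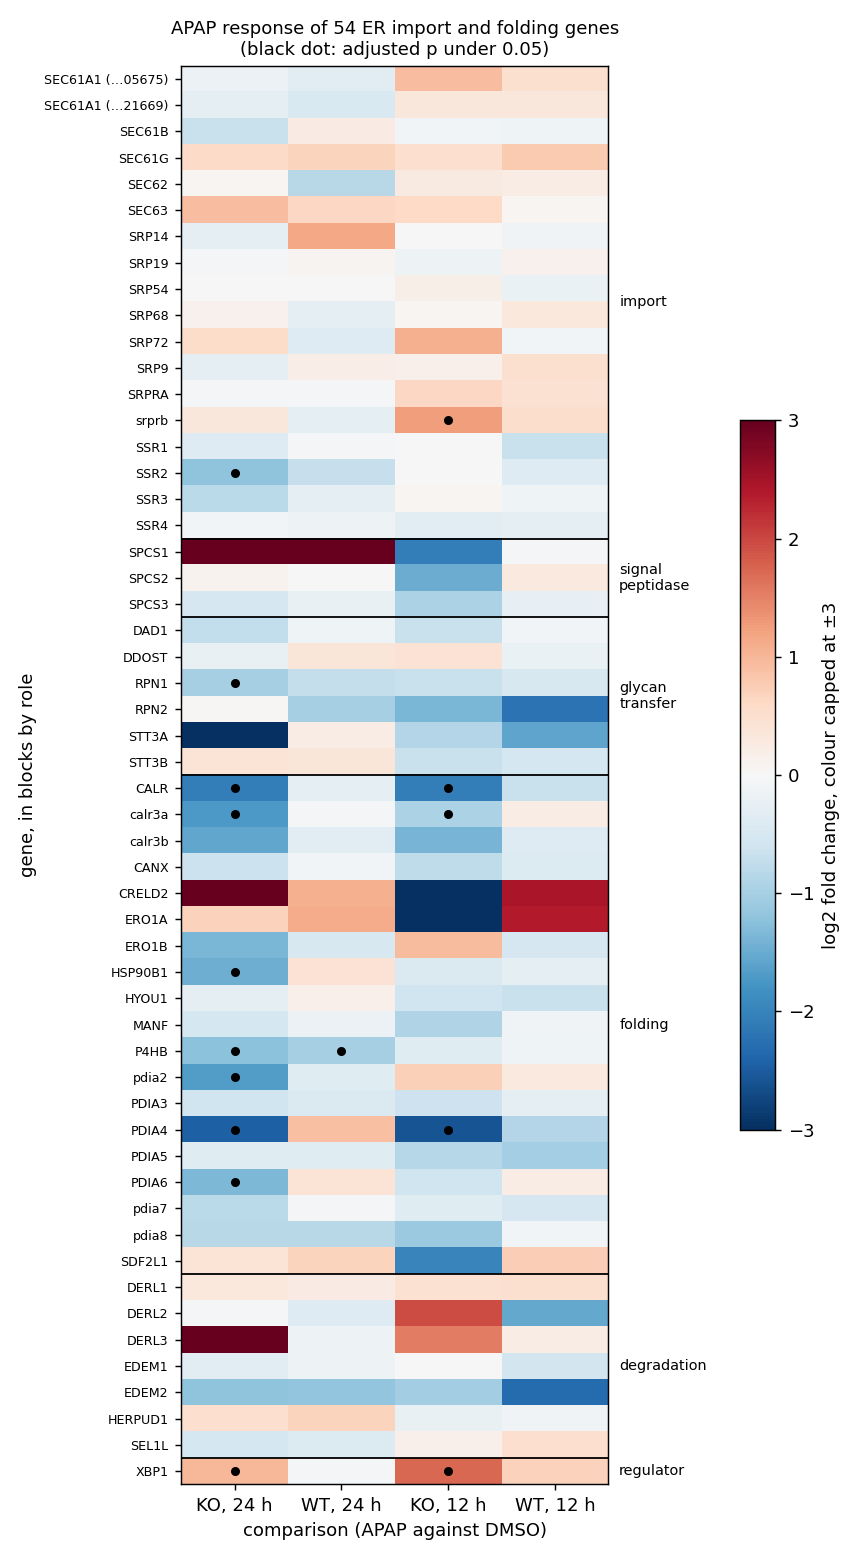
Log2 fold change, APAP against DMSO (colour, capped at 3 in either direction), of the 54 tested genes in rows grouped by role, in KO and WT livers at 24 h and 12 h; a black dot marks an adjusted p under 0.05. Folding genes in the KO columns hold most of the dots, 7 at 24 h and 3 at 12 h, and the strongest colours outside them belong to genes with few counts.

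Whether KO and WT differed was read from 3 sets of tests, which share libraries with the comparisons above and with each other. Under DMSO at 24 h, 1 gene was called, against 0.281% of all tested genes. PDIA6 had 121, 89.5, 32.9 and 54.98 CPM in KO DMSO libraries, against 23.1, 7.82, 19.0 and 16.2 CPM in WT DMSO libraries. All KO libraries stood above all WT libraries (2.17 ± 0.39, edgeR adjusted p = 0.00345), a level 4.51-fold that of WT DMSO livers. PDIA6 was called under all 7 alternatives. The count of genes was 3 without the 3 libraries poorest in genes, where 1.55% of all tested genes were called. It was 7 with only these 2 groups in the fit, where 5.29% were. Under DMSO at 12 h edgeR called none, against 0.246% of all tested genes; 7 higher and 5 lower had an unadjusted p under 0.05, and DESeq2 called 1, DAD1, an oligosaccharyltransferase subunit.

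Under APAP at 24 h, 2 genes were called in KO against WT, compared with 1.19% of all tested genes. XBP1 had 2078, 1573, 1710 and 1371 CPM in KO APAP livers, against 844, 892, 450 and 498 CPM in WT APAP livers (1.33 ± 0.24, edgeR adjusted p = 0.00108). The lowest KO library stood well above the highest WT library. calr3a had 91.4, 71.3, 71.1 and 61.9 CPM in KO APAP livers, against 177, 156, 185 and 179 CPM in WT APAP livers (-1.24 ± 0.27, edgeR adjusted p = 0.00898), again without overlap. Leaving out replicate 3 or 4 of KO APAP 24 h removed the calr3a call (edgeR adjusted p 0.0547 to 0.0696), as did having no count filter. The count was 5 without the 3 libraries poorest in genes, with DESeq2 and with only these 2 groups in the fit. Those fits called 3.95%, 2.63% and 4.2% of all tested genes, in that order. With median-of-ratios scaling PDIA4 was called as well, giving 1 higher and 2 lower.

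Under APAP at 12 h, 3 genes were called in KO against WT, compared with 2.23% of all tested genes. XBP1 (1.196 ± 0.24, edgeR adjusted p = 0.00429) was higher in KO and calr3a (-1.23 ± 0.27, 0.00903) lower, and no single library ended either call. DERL2 was the third, with 5.68, 75.9, 5.68 and 14.1 CPM in KO APAP livers, against 3.21, 3.38, 0.871 and 3.38 CPM in WT APAP livers (3.21 ± 0.75, edgeR adjusted p = 0.0138). Its value of 75.9 CPM belonged to KO APAP 12 h replicate 2, the library poorest in genes. Without it the log2 fold change was 1.65 and the call ended; it also ended without WT APAP 12 h replicate 3 (2.88; adjusted p 0.0732 to 0.199 over the 2). The count was 7 with DESeq2, against 6.83% of all tested genes, and 1 with only these 2 groups in the fit, against 0.415%.

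The test that asks directly whether the response to APAP differed between genotypes called none of the 54 genes. At 24 h, against 0.105% of all tested genes, 2 had a higher and 6 a lower difference at an unadjusted p under 0.05, and DESeq2 called 2, calr3a and PDIA6. The difference was -1.68 ± 0.38 for calr3a (KO minus WT, log2; edgeR adjusted p = 0.0644) and -1.90 ± 0.57 for HSP90B1 (0.410). It was 1.04 ± 0.34 for XBP1 (0.691). The calr3a difference passed in 4 of the 7 alternatives: DESeq2, the compared groups alone (0.0136), the pancreas covariate (0.0395) and the fit without the 3 libraries poorest in genes (0.00567). At 12 h, against 0.0703% of all tested genes, 3 higher and 3 lower had an unadjusted p under 0.05, and DESeq2 called 0. XBP1 again had a difference of 1.04 ± 0.34 (edgeR adjusted p = 0.364).

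Between 12 h and 24 h the levels of several genes moved in the solvent controls themselves. In WT DMSO livers 4 genes were called, 24 h against 12 h, compared with 2.05% of all tested genes. HSP90B1 had 278, 257, 225 and 177 CPM at 24 h, against 434, 1124, 1784 and 476 CPM at 12 h. Every 24 h library lay below every 12 h library (-2.03 ± 0.41, edgeR adjusted p = 0.00250), and no single library ended this call. PDIA4 averaged 6.95 ± 3.04 CPM at 24 h and 42.9 ± 28.8 CPM at 12 h (-2.62 ± 0.69, edgeR adjusted p = 0.0293). calr3a averaged 180 ± 23.4 CPM at 24 h and 376 ± 143 CPM at 12 h (-1.06 ± 0.27, edgeR adjusted p = 0.0249), and XBP1 695 ± 93.5 CPM at 24 h and 363 ± 80.3 CPM at 12 h (0.94 ± 0.24, 0.0253). Each of these last 3 calls ended without any of 5 libraries, where the edgeR adjusted p lay between 0.0513 and 0.173. For PDIA4 they were WT DMSO 12 h replicate 3 and all 4 of WT DMSO 24 h, for XBP1 12 h replicates 1, 3 and 4 and 24 h replicates 1 and 2, for calr3a 12 h replicates 1 and 2 and 24 h replicates 2, 3 and 4. Median-of-ratios scaling ended the XBP1 call, leaving 3 lower. The pancreas share was 7.45 ± 2.81% at 24 h and 4.05 ± 2.24% at 12 h in these livers, and with it as a covariate 1 gene was called, HSP90B1. Without the 3 libraries poorest in genes 7 were called, against 4.84% of all tested genes, and calr3a was no longer among them.

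In KO DMSO livers 3 genes were called, 24 h against 12 h, compared with 2.52% of all tested genes. XBP1 averaged 848 ± 121 CPM at 24 h and 406 ± 62.8 CPM at 12 h (1.06 ± 0.24, edgeR adjusted p = 0.00796), and no single library ended the call. SSR4, another translocon-associated subunit, had 139, 91.8, 94.1 and 111 CPM at 24 h, against 274, 182, 279 and 200 CPM at 12 h (-1.10 ± 0.26, edgeR adjusted p = 0.0118). Dropping KO DMSO 12 h replicate 1 or KO DMSO 24 h replicate 2 or 3 ended the SSR4 call (0.0505 to 0.0629). SPCS1, a signal peptidase subunit, had 0 counts over the 24 h group and 216 over the 12 h group. Pooled over each group it was at least 42.5-fold lower at 24 h, with a floor of 3 counts over the group. The 12 h libraries were uneven, at 14.3, 7.99, 6.05 and 0.574 CPM. The SPCS1 call ended when KO DMSO 12 h replicate 1 or any 1 of the 4 KO DMSO 24 h libraries was dropped (0.0514 to 0.0622), and with the pancreas share as a covariate. The count was 8 without the 3 libraries poorest in genes, against 6.87% of all tested genes. It was 7 with only these 2 groups in the fit, against 9.72%.

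Under APAP, 24 h against 12 h, calr3a was lower in both genotypes. In KO APAP livers 2 genes were called, compared with 0.439% of all tested genes. DESeq2 called 8, against 2.76% of all tested genes, and edgeR with only these 2 groups in the fit 0, against 0.0691%. calr3a averaged 73.9 ± 12.4 CPM at 24 h and 188 ± 48.02 CPM at 12 h (-1.34 ± 0.28, edgeR adjusted p = 0.0107), and dropping replicate 2, 3 or 4 of KO APAP 24 h ended the call (0.0659 to 0.0719). SSR3 had 153, 158, 162 and 143 CPM at 24 h, against 352, 500, 315 and 221 CPM at 12 h (-1.17 ± 0.27, edgeR adjusted p = 0.0251). The SSR3 call needed KO APAP 12 h replicate 2 and each of the 4 KO APAP 24 h libraries (0.0811 to 0.118 without 1 of them). In WT APAP livers 1 gene was called, compared with 0.0527% of all tested genes, and it was calr3a, at 174 ± 12.7 CPM at 24 h and 441 ± 34.2 CPM at 12 h (-1.34 ± 0.27, edgeR adjusted p = 0.0370); leaving out any 1 of the 8 libraries ended it (0.0515 to 0.179), as did the pancreas share as a covariate.

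Whether the APAP response itself changed between the times was tested in each genotype, and edgeR called 0 of the 54 genes in either, against 0.193% of all tested genes in KO and 0.228% in WT. In KO, 2 higher and 10 lower had an unadjusted p under 0.05, and DESeq2 called 1; in WT the counts were 0 and 3, and DESeq2 called 0. The nearest was pdia2 in KO (24 h minus 12 h, -2.40 ± 0.56, edgeR adjusted p = 0.0502), which had 136, 263, 264 and 226 CPM under APAP at 12 h, against 113, 129, 180 and 117 CPM under DMSO at 12 h.

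A wider list of ER genes outside the name pattern, among them chaperones, stress sensors and their targets, degradation factors and vesicle coat genes, had 101 tested genes. In KO at 12 h, 8 of them were called higher and 2 lower, against 3.09% higher and 2.13% lower over all tested genes, so the lower calls were near that share. Their median was -0.01, against -0.30 over all tested genes. In KO at 24 h, 4 were called higher and 6 lower, against 2.05% higher and 3% lower over all tested genes, with a median of -0.17 against -0.00. In WT at 24 h 1 was called, higher, against 3.2% of all tested genes, and in WT at 12 h none by edgeR, against 1.8%. There 5 higher and 1 lower had an unadjusted p under 0.05, and DESeq2 called 1 higher and 1 lower. The sensor and effector genes, 16 tested, had 5 called higher and 1 lower in KO at 12 h (3.09% and 2.13% over all tested genes). They had 3 called higher in KO at 24 h, and 1 called higher in WT at 24 h. All 6 genes lower in KO at 24 h came from a mixed class of 50 tested genes. That class holds cochaperones with other folding, import and oligosaccharyltransferase genes. Without KO APAP 12 h replicate 2 the sensor and effector genes also had 5 called higher and 1 lower in KO at 12 h. The 5 were not the same genes, since atf4b was no longer called. With only the 2 KO groups of 12 h in the fit 1 was called, higher.

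The main ER chaperone BiP belongs to that list. Its gene HSPA5 (ENSDARG00000103846) had 2922, 3265, 2056 and 3532 CPM in KO APAP livers at 12 h, against 487, 450, 385 and 650 CPM in KO DMSO livers. Each APAP library exceeded each DMSO library more than 3 times (2.58 ± 0.33, edgeR adjusted p = 1.4e-06). In WT at 12 h it had 959, 1122, 933 and 1637 CPM under APAP, against 577, 917, 1260 and 679 CPM under DMSO (0.44, edgeR adjusted p = 0.751), with overlap. At 24 h in KO it had 2062, 1095, 1363 and 1682 CPM under APAP, against 1127, 751, 435 and 306 CPM under DMSO (1.24 ± 0.32, edgeR adjusted p = 0.0122). That 24 h call rested on KO APAP 24 h replicate 1 and KO DMSO 24 h replicates 3 and 4 (0.0715 to 0.0861 without 1 of them). In WT at 24 h HSPA5 had 584, 928, 655 and 603 CPM under APAP, against 410, 393, 208 and 457 CPM under DMSO. It was not called there, though every APAP library exceeded every DMSO library. HSPA5 and XBP1 were called higher in KO at both times, where PDIA4, CALR and calr3a, the members called at both times beside XBP1, were called lower.

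Other genes of the list included the stress transcription factor gene atf4a, which was called higher in KO at 12 h (1.73), in KO at 24 h (1.82) and in WT at 24 h (1.19). The WT call ended in 6 of 15 alternative fits. These were the fit without a count filter and those without WT APAP 24 h replicate 2 or 4 or WT DMSO 24 h replicate 1, 2 or 3. The KO call at 24 h stood in all 16, and that at 12 h ended only with the compared groups alone. ATF3 (3.02) and TRIB3 (2.94), both known targets of ATF4, were called higher in KO at 12 h, each with overlap between the groups. Neither was called in WT, yet ATF3 averaged 15.8 ± 6.55 CPM under APAP and 3.49 ± 2.14 CPM under DMSO at 12 h. At 24 h in WT, ATF3 averaged 19.4 ± 6.84 CPM under APAP and 4.43 ± 1.22 CPM under DMSO. TRIB3 averaged 18.2 ± 4.05 CPM under APAP and 4.37 ± 3.32 CPM under DMSO in WT at 12 h. These WT groups did not overlap, while those of TRIB3 at 24 h did. ATF3 lost its call without KO APAP 12 h replicate 4 or any 1 of the 4 KO DMSO 12 h libraries. EIF2AK3, which encodes a stress sensor kinase, was lower there (-2.29), but not without KO DMSO 12 h replicate 2 or 3. KRTCAP2, an oligosaccharyltransferase subunit, was lower in KO at 12 h (-1.44) and at 24 h (-2.01). In KO at 24 h the prolyl isomerase genes fkbp11 (-2.89) and PPIB (-1.34) were lower. So were OSTC (-1.11), a further oligosaccharyltransferase subunit, and both genes under the symbol SERP1. OSTC and one SERP1 gene (ENSDARG00000099439) were not called with the libraries paired or without a count filter. Of 16 alternative fits, that SERP1 gene lost its call in 10 and OSTC in 7, most of them fits with 1 library left out. The other SERP1 gene lost its call in 2 of the 16. VCP (1.28), the segregase that pulls chains out of the ER, was higher. So was ppp1r15b, with 122 counts in KO APAP and 0 in KO DMSO livers. Pooled over each group it was at least 38.04-fold higher, with a floor of 3 counts over the group.

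Over the 8 group means, the mean log2 CPM of the 11 genes called in any APAP comparison was 6.25 in KO APAP livers and 7.38 in KO DMSO livers at 24 h. In WT at 24 h it was 6.68 under APAP and 6.88 under DMSO. At 12 h it was 6.88 in KO APAP, 7.28 in KO DMSO, 7.28 in WT APAP and 7.30 in WT DMSO livers. Outside these genes, the profiles most like it over the 8 means belonged to ZBTB18 (Pearson r 0.951), PIGL (0.928), DECR1 (0.925), CASQ2 (0.923) and COL11A2 (0.921), a description over points that share libraries.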

How the data were processed

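Zebrafish liver RNA was sequenced in 32 libraries of 20 pooled livers, 4 in each of 8 groups of genotype, treatment and time. Raw gene counts were deposited by the authors as 1 table; per the submitters' processing notes the tools were bcl2fastq, Trim Galore, HISAT2 and HTSeq, with genome build GRCz11. Their settings, the annotation release and the strand setting are not given in the sources used here, so reads of overlapping genes cannot be told apart. Symbols came from an Ensembl name table and matched 29200 of 32519 genes; zebrafish genes carry human-style capitals where the table gives them. HTSeq's ambiguous class held 2.06% to 3.17% of reads in a library and, like the other rows that name no gene, stayed out of library sizes and tests.

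The counts were tested with edgeR 4.0.16 in R 4.3.3 (TMM, filterByExpr with a minimum count of 10, 1 mean per group, all 32 libraries, quasi-likelihood F-test, 24 residual degrees of freedom, 16 comparisons), Benjamini-Hochberg adjusted over 11384 genes in each comparison. The scripts were tested on simulated data. Alternatives were DESeq2 1.42.0, median-of-ratios scaling (RLE) in edgeR, no count filter, the compared groups alone, a replicate block, the pancreas share as a covariate, the fit without the 3 libraries poorest in genes, and each library left out. Pairs of replicates differed beyond counting noise (lowest chi-square per degree of freedom 18.5). Replicate numbers were taken to pair 2 groups where all 4 same-numbered libraries had deviations from their group means that correlated over 0.1. That held in 1 of 28 pairs of groups, KO APAP 24 h with KO DMSO 24 h (0.119 to 0.164); the labels do not say what a number shares. A block on those 8 libraries alone was added after the data were seen. Shares of counts cover counting error only in so far as reads are independent molecules.

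The genes and lists were chosen with earlier results of these data known. Named genes were, per APAP comparison, the 6 called members with the smallest adjusted p with all values, the other called members by fold change, every called member of the other comparisons, and a list of well-known members whatever their test. No sequences are printed here.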

Additional observations from a re-analysis of the deposited data

Results flagged for a closer look

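Among 12 genes in 8 groups each, 96 sets of 4 libraries were screened for a library far from the other 3, and 6 were found; chance gives about 1 in 20. HSP90B1 had 485.58 CPM in KO APAP 12 h replicate 3, against 338 to 363 CPM in the others of its group. PDIA4 had 28.4 CPM in WT APAP 24 h replicate 3, against 6.22 to 9.61 CPM, and 86.1 CPM in WT DMSO 12 h replicate 3, against 27.05 to 30.1 CPM. RPN1 had 43.02 CPM in WT DMSO 24 h replicate 1, against 98.1 to 104 CPM. In KO APAP 12 h replicate 2, the library poorest in genes, RPN1 had 66.8 CPM, against 94.6 to 97.4 CPM, and P4HB 393 CPM, against 555 to 586 CPM.

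The response of HSPA5 to APAP at 12 h differed between genotypes by the test of the difference itself: it was 2.14 ± 0.45 larger on the log2 scale in KO than in WT (edgeR adjusted p = 0.0438). The call ended with RLE scaling, with the compared groups alone, without the 3 libraries poorest in genes, and in 11 of 16 fits that left out 1 library (adjusted p 0.0693 to 0.202), with the difference between 1.89 and 2.30 throughout those 16.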

How the results depend on the processing

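Counts are of the 54 ER genes called. Percentages in brackets are the share of all tested genes called in the same fit. The 3 libraries poorest in genes are all of 12 h, so leaving them out kept every library of a comparison within 24 h. For APAP against DMSO, KO livers at 24 h had 10 (5.05%), with 8 without a count filter (2.64%) and 18 from the compared groups alone (19.4%). They had 16 without the 3 libraries poorest in genes (10.9%) and 5 to 9 with 1 library left out. KO livers at 12 h had 5 (5.22%), with 9 in DESeq2 (11.3%) and 1 from the compared groups alone (1.1%). They had 3 without a count filter (2.92%), 3 without the 3 poorest libraries (5.42%) and 1 to 5 with 1 left out. WT livers at 24 h had 1 (3.2%), with 2 in DESeq2 (5.82%), 0 without a filter (1.87%) and 0 to 1 with 1 left out. WT livers at 12 h had 0 (1.8%), with 1 in DESeq2 (3.65%), 2 without the 3 poorest libraries (3.68%) and 0 with any 1 left out.

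For KO against WT, DMSO at 24 h had 1 (0.281%), with 7 from the compared groups alone (5.29%) and 3 without the 3 poorest libraries (1.55%). DMSO at 12 h had 0 (0.246%), with 1 in DESeq2 (0.87%) and 1 without a filter (0.329%). APAP at 24 h had 2 (1.19%), with 5 in DESeq2 (2.63%) and 5 from the compared groups alone (4.2%). It had 5 without the 3 poorest libraries (3.95%) and 1 to 2 with 1 left out. APAP at 12 h had 3 (2.23%), with 7 in DESeq2 (6.83%), 1 from the compared groups alone (0.415%) and 2 to 4 with 1 left out. The difference in response at 24 h had 0 (0.105%), with 2 in DESeq2 (0.343%) and 1 from the compared groups alone (0.27%). It had 1 without a filter (0.16%), 1 with the pancreas covariate (0.132%) and 2 without the 3 poorest libraries (0.299%).

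For 24 h against 12 h, WT DMSO livers had 4 (2.05%), with 7 in DESeq2 (4.03%) and 2 without a filter (1.52%). They had 1 with the pancreas covariate (1.5%), 7 without the 3 poorest libraries (4.84%) and 1 to 3 with 1 left out. KO APAP livers had 2 (0.439%), with 8 in DESeq2 (2.76%) and 0 from the compared groups alone (0.0691%). They had 1 without the 3 poorest libraries (0.422%) and 0 to 3 with 1 left out. KO DMSO livers had 3 (2.52%), with 5 in DESeq2 (4.63%) and 7 from the compared groups alone (9.72%). They had 8 without the 3 poorest libraries (6.87%) and 1 to 3 with 1 left out. WT APAP livers had 1 (0.0527%), with 0 under the pancreas covariate (0.0264%) and 0 with any 1 left out. The change of the KO response with time had 0 (0.193%), with 1 in DESeq2 (0.966%) and in the compared groups alone (0.287%). It had 1 without a filter (0.591%) and without the 3 poorest libraries (0.457%), and 0 to 2 with 1 left out. The cause of these changes was not tested.

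The replicate block over all 32 libraries changed 1 call: PDIA4 in WT DMSO livers, 24 h against 12 h, was not called, leaving 3; KO at 24 h stayed at 10 and KO at 12 h at 5, the same genes. A block in the 8 KO libraries of 24 h alone, the 2 groups whose numbers paired, gave 8, of which 7 were among the 10. Elsewhere the numbers did not meet the rule that all 4 correlations exceed 0.1. WT APAP 12 h with KO DMSO 12 h came nearest, at 0.0808 to 0.364. The correlation of deviations ran from -0.37 to 0.36 over 112 pairs, and 13 of 32 libraries correlated best with their own number. The pancreas share, APAP minus DMSO, turned negative in WT at 12 h without 3 trypsin genes (-0.0532 percentage points) and ran from -0.543 to 1.22 with 1 library left out; in WT at 24 h it ran from -2.68 to 2.43, negative without WT APAP 24 h replicate 2 or 4 or WT DMSO 24 h replicate 2 or 3. Genes near or below 1 CPM limit what can be seen of CRELD2, ERO1A and pdia8.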
